A study of Mus musculus with 29 samples.

Results

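The 4 Hox clusters of the mouse, Hoxa, Hoxb, Hoxc and Hoxd, were read in a genome segmentation of monoubiquitinated histone H2A (H2AK119ub, here H2Aub) together with 500 kb on each side of each cluster. The 38 genes described were taken by symbol at their RefSeq positions on mm10, from Hoxa2 to Hoxd13, out of 20554 protein-coding genes on the segmented chromosomes 1 to 19. They were chosen by name and position, not by their types, although earlier results of these data were known.

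Of 29 CUT&RUN libraries, made from DNA that an antibody-guided nuclease releases around a histone mark, 24 were for H2Aub and 5 for H3K27me3. The 6 libraries labelled as maternal Eed knockouts, with Eed being a subunit of Polycomb repressive complex 2 and Gdf9 a gene of growing oocytes, came from Gdf9-Eed (fl/fl) germinal vesicle oocytes and from 4-cell embryos and morulae of Gdf9-Eed (fl/fl) mothers and WT fathers, 2 of each, all on a mixed B6/129 background on the mother's side. The 6 libraries named for PR-DUB, the H2A deubiquitinase, came from 4-cell embryos of B6/DBA mothers and PWK fathers, with 1 H2Aub and 2 H3K27me3 libraries for overexpression (OE) and the same for control (CTR). The 16 H2Aub libraries titled WT covered 8 stages: germinal vesicle and metaphase II oocytes, zygotes, 2-cell and 4-cell embryos, morulae, inner cell mass and E6.5 epiblast. Of these, germinal vesicle oocytes and the mothers of 4-cell embryos, morulae and 2 of the 3 libraries of 2-cell embryos were Eed (fl/fl) on the same B6/129 background, so that they carried the floxed allele too. Metaphase II oocytes and the mothers of the other embryos were WT B6/DBA, and all fathers were WT PWK. The remaining H3K27me3 library came from WT B6/DBA germinal vesicle oocytes. Where a number was given, a library was made from between 1 and 300 pooled oocytes or embryos, with 1 epiblast each at E6.5.

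The segmentation carries a type from 1 to 5 for each stretch of sequence, in steps of 5 kb, and no value for any library. The types have no key, so no level of H2Aub and no stage is attached to them, the depth is unknown, and no comparison between groups could be made. Shares and counts describe 1 segmentation, and no test was made. The 38 genes are not independent of each other, because the genes of a cluster share segments.

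Hox genes encode homeodomain transcription factors that give cells their position along the body axis. Within each cluster they lie in order of paralog number, and genes of low number are switched on earlier and nearer to the head than genes of high number. Polycomb repressive complexes 1 and 2, which lay down H2Aub and H3K27me3, keep Hox genes silent where and when they are not in use. The 4 clusters arose by duplication of 1 ancestral cluster, so that genes of the same number in different clusters are paralogs.

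The Hox genes lay in type 4, with a part in type 3 at the low-number end of Hoxb and Hoxc. By the type over most of the gene body, 33 of the 38 genes were type 4 (86.8%), while 14.0% of all protein-coding genes were. The other 5, namely Hoxb1, Hoxb2, Hoxc4, Hoxc5 and Hoxc6, were type 3, which held 33.8% of all protein-coding genes. None of the 38 was type 1, 2 or 5, which held 37.2%, 5.43% and 9.54% of all protein-coding genes. Of the 38 bodies 35 lay in a single type (92.1%, against 68.7% of all protein-coding genes), but Hox bodies were also short, with a median of 3.72 kb against 17.6 kb. The median Hox body was 100% type 4, and the median over all protein-coding genes was 0%.

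**Figure D1:**
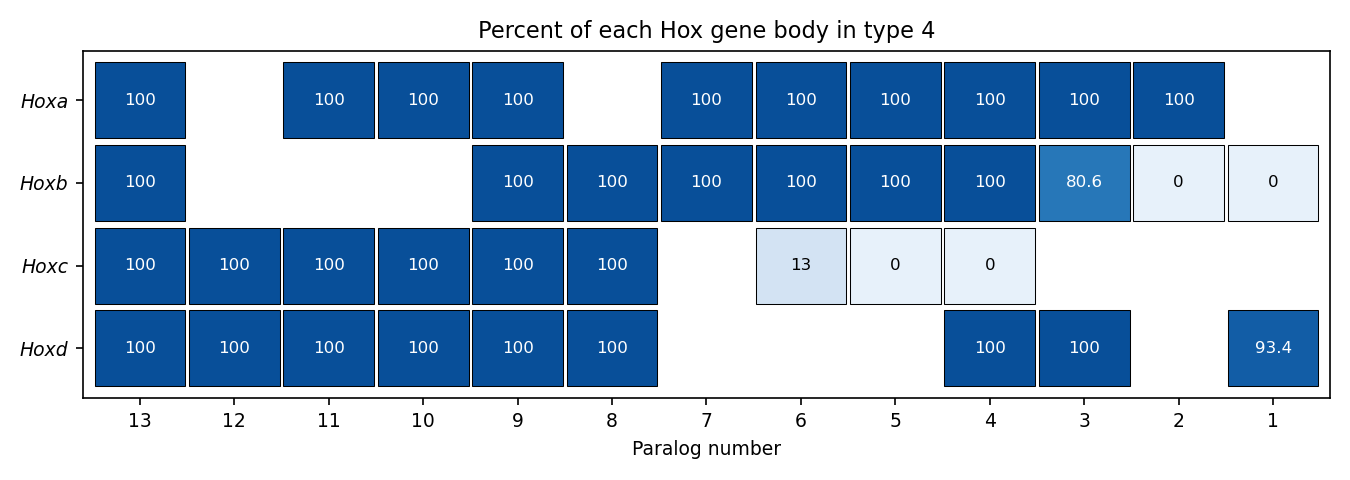
Percent of each Hox gene body in type 4, with clusters in rows and paralog numbers in columns from 13 to 1; blank positions hold no gene described here. All genes from number 13 to number 7 are at 100, and the 5 lowest values are Hoxb1, Hoxb2, Hoxc4 and Hoxc5 at 0 and Hoxc6 at 13.

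Type followed paralog number in Hoxb and Hoxc and not in Hoxa and Hoxd. All 21 genes of numbers 7 to 13 lay wholly in type 4, which held 9.50% of all protein-coding genes wholly. Of the 17 genes of numbers 1 to 6, 12 were type 4 and 5 type 3. All 4 genes of number 13, a group with roles in the digits, the tail end and the urogenital tract, were type 4. So were all 4 of number 9 and all 3 of numbers 8, 10 and 11. Among the 13 paralog numbers, 5 had members in both types. For number 1, Hoxb1, which sets the identity of a hindbrain segment, was type 3, and Hoxd1 was 93.4% type 4. For number 2, Hoxb2 was type 3 and Hoxa2, which patterns the second pharyngeal arch, was type 4. For numbers 4, 5 and 6, the Hoxc gene was type 3 and the genes of the other clusters were type 4. All 3 genes of number 3 were mainly type 4, at 100% for Hoxa3, which is needed for the thymus and parathyroid, 100% for Hoxd3 and 80.6% for Hoxb3.

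Annotated bodies overlap, which ties some values together. The body of Hoxa3 (44.0 kb) contains those of Hoxa4, Hoxa5 and Hoxa6, the body of Hoxb3 (40.8 kb) contains Hoxb4, and the body of Hoxd3 (36.3 kb) contains Hoxd4. Without these 3 long bodies 30 of 35 genes were type 4.

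The Hoxa cluster was uniform. From Hoxa2 to Hoxa13 (chromosome 6, 52162417 to 52260880, 98.5 kb) it lay in 1 type 4 segment of 280 kb, from 52025001 to 52305000. All 10 genes had 100% of the body in type 4, from Hoxa2 over Hoxa5, a factor of the cervical spine and lung, and Hoxa9, a factor of blood progenitors, to Hoxa11 and Hoxa13, which pattern the forearm and the digits. The segment ran on for 137 kb beyond Hoxa2 and for 44.1 kb beyond Hoxa13. Of the 4751 type 4 segments in the genome, 165 (3.47%) were as long, and 6 held as many protein-coding genes wholly inside. Since 77.8% of type 4 segments held no such gene, the length was also set beside the 1056 that held at least 1, of which 10.4% were as long.

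The Hoxd cluster was nearly uniform. From Hoxd13 to Hoxd1 (chromosome 2, 74668225 to 74765142, 96.9 kb) it was 99.9% type 4, in a segment of 125 kb from 74640001 to 74765000. All genes from Hoxd13 to Hoxd3 had 100% of the body in type 4. The segment ended within the last 0.142 kb of Hoxd1, less than the 5 kb step of the segmentation, and ran on for 28.2 kb beyond Hoxd13, over Evx2. Of all type 4 segments 16.5% were as long, as were 39.5% of those that held a protein-coding gene wholly, and 13 (0.274%) held as many as its 9 protein-coding genes wholly inside.

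The Hoxb cluster held 2 type 4 segments. From Hoxb13 to Hoxb1 (chromosome 11, 96194316 to 96368254, 173.9 kb) it was 57.9% type 4 and 42.1% type 3. Hoxb13, a factor of the tail end and the prostate, lay apart from the other genes in a type 4 segment of 75 kb (96135001 to 96210000). Type 3 followed for 45 kb between Hoxb13 and Hoxb9, with no Hox gene. The second type 4 segment, of 85 kb (96255001 to 96340000), began 16.3 kb before Hoxb9 and held Hoxb9, Hoxb8, Hoxb7, Hoxb6, Hoxb5 and Hoxb4 wholly. It ended inside Hoxb3, 7.93 kb before the upper end of that body and 11.6 kb before Hoxb2. From there type 3 ran for 105 kb with Hoxb2 and Hoxb1. Without Hoxb13 the Hoxb genes spanned 96.9 kb, of which 70.8% was type 4.

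The Hoxc cluster was divided once. From Hoxc13 to Hoxc4 (chromosome 15, 102921131 to 103036856, 115.7 kb) it was 68.2% type 4 and 31.8% type 3. A type 4 segment of 95 kb (102905001 to 103000000) held Hoxc13, a factor of hair and nails, Hoxc12, Hoxc11, Hoxc10, Hoxc9 and Hoxc8 wholly. It ended inside Hoxc6, 1.78 kb from the lower end of that body, which was 13% type 4 and 87% type 3. The type 3 segment that followed was 190 kb long and held Hoxc5 and Hoxc4 wholly. The segments of 75, 85 and 95 kb at Hoxb and Hoxc were of common size, with 29.9%, 26.4% and 23.2% of all type 4 segments as long, against a median of 40 kb. Among type 4 segments with a protein-coding gene wholly inside, 60.0%, 54.5% and 50.8% were as long.

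**Figure D2:**
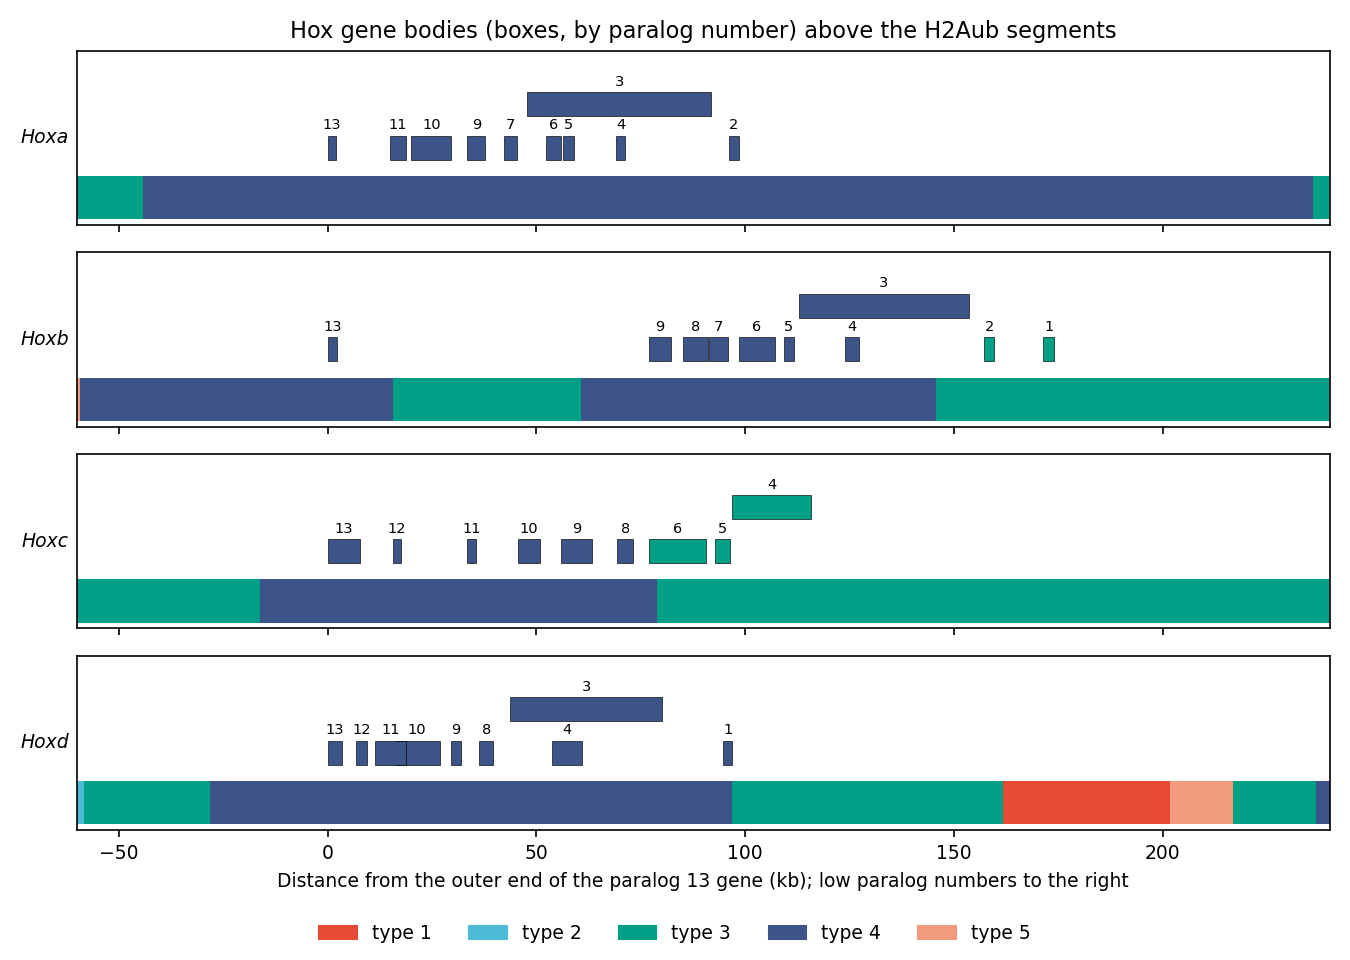
Hox gene bodies as boxes with their paralog number, coloured by the type over most of the body, above the segments of each cluster; the x axis is the distance in kb from the outer end of the paralog 13 gene, and long bodies are raised. In Hoxa and Hoxd 1 type 4 segment spans the genes, while type 3 covers 45 kb after Hoxb13 and the low-number ends of Hoxb and Hoxc.

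Sequence between the genes shared the type of the genes in Hoxa and Hoxd, where 100% of it was type 4. In Hoxb, gene bodies were 82.9% type 4 and the sequence between them 38.8%, which includes the gap after Hoxb13. In Hoxc the order was the other way, with 46.6% of the bodies and 94.6% of the sequence between them in type 4, since the long bodies of Hoxc4 and Hoxc6 lie in type 3. Over the 4 clusters 77.3% of 485.0 kb was type 4 and 22.7% type 3.

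The promoters of paralogs that differed in type are printed to show their sequence. Types were read in bins of 5 kb over whole bodies, and a link between promoter sequence and type was not tested. They are the RefSeq promoters of GRCm38.p6, from 250 bases before to 50 after the start site, 5′ to 3′, with each CpG in capitals. Hoxb1 and Hoxc4 are the type 3 genes with an entry, followed by their type 4 paralogs Hoxd1, Hoxb4 and Hoxd4.
Hoxb1, chr11:96365508-96365807, plus strand: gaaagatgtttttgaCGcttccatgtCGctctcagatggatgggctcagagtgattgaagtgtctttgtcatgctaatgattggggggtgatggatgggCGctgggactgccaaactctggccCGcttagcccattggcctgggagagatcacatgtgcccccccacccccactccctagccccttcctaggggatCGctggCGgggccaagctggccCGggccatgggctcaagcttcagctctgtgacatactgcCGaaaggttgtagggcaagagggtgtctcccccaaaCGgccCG
Hoxc4, chr15:103034145-103034444, plus strand: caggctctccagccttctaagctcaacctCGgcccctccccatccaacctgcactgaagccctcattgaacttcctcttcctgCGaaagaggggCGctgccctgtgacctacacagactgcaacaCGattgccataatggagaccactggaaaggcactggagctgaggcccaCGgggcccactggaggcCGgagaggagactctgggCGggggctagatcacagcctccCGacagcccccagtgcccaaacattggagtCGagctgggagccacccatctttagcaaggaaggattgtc
Hoxd1, chr2:74762730-74763029, plus strand: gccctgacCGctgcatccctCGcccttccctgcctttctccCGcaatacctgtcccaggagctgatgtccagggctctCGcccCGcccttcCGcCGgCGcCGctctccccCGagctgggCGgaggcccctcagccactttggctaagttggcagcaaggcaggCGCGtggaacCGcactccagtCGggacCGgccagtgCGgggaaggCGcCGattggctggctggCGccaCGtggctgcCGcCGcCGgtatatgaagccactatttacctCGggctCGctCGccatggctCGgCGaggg
Hoxb4, chr11:96318017-96318316, plus strand: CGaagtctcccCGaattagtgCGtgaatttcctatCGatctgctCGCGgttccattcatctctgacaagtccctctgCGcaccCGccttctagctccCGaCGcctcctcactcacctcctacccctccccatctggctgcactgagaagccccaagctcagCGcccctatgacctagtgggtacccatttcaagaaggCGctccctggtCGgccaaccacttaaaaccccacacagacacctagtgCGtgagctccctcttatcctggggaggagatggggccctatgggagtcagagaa
Hoxd4, chr2:74721728-74722027, plus strand: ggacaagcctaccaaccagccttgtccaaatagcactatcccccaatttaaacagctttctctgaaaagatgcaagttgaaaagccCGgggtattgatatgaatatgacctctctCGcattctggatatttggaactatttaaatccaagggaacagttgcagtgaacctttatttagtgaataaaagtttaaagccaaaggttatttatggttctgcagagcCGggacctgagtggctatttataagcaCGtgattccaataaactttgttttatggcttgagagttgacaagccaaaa

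CpG dinucleotides, at which unmethylated DNA recruits a form of Polycomb repressive complex 1, were counted in these windows. The type 3 promoters held 10 CpG (Hoxb1) and 9 CpG (Hoxc4), at 0.380 and 0.333 times the number expected from their C and G content. The Hoxc4 entry starts inside the gene body, at 103034395, while the body begins at 103018097. No entry was given for the outer start of Hoxc4, so its CpG were not counted. Of the type 4 paralogs, Hoxd1 held 29 CpG (0.805 times the expected number), Hoxb4 14 (0.593 times) and Hoxd4 4 (0.339 times). The ratios of both type 3 promoters, and of Hoxd4 in type 4, lay a little below the median of 0.389 over all promoters. Medians were 0.487 over all type 3 promoters and 0.321 over all type 4 promoters. Over all promoters the order of types 3 and 4 was thus the other way from Hoxb1 and Hoxd1.

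Of the 38 genes 22 had an entry, with 24 promoters, since Hoxa10 and Hoxd11 had 2 each. The single entries of Hoxc4, Hoxb8 and Hoxd10 start well inside the annotated body, not at its outer end. By the bin at the start site 22 of these promoters were type 4 and 2 type 3, while 19.7% of all 31396 promoters were type 4. The ratio of observed to expected CpG had a median of 0.705 over the 22 type 4 Hox promoters (0.257 to 1.02), against 0.321 over all 6170 type 4 promoters. A ratio above 0.6 was found in 12 of the 24 Hox promoters, against 36.4% of all promoters. All 12 were among the 22 Hox promoters in type 4 (54.5%), against 26.0% of all type 4 promoters and 41.9% of all type 3 promoters. The highest ratios were at Hoxa5 (1.02) and Hoxb8 (0.970), and the lowest at the outer start of Hoxd11 (0.257) and at Hoxa9 (0.280). High and low ratios thus occurred side by side within type 4. The Hoxa13 promoter held the most CpG, 45, with a GC content of 81.0%.

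The non-coding genes inside the clusters mostly had the type of the Hox genes around them. Of 29 such genes 26 were type 4 and 3 type 3, while 15.9% of all annotated genes were type 4 and 31.0% type 3. The spans they were taken from were 77.3% type 4 and 22.7% type 3, so these counts largely follow from the segments described above. Hotair, a long non-coding RNA of the Hoxc cluster, was wholly type 4, as were Hoxa11os, Haglr and Hoxb5os. Hoxb3os, on the Hoxb2 side of the border inside Hoxb3, was type 3, and so was the pseudogene Gm11539 between Hoxb13 and Hoxb9. Of the 6 miRNA genes, Mir10a, Mir10b, Mir196a-1, Mir196a-2 and Mir196b were type 4 and Mir615, inside the body of Hoxc5, was type 3. The miR-10 and miR-196 families, known to act on Hox transcripts, occur in more than 1 cluster with the same seed, and their mature sequences (RefSeq, GRCm38.p6, 5′ to 3′) are given with the seed, bases 2 to 8, in capitals.
mmu-miR-10a-5p, chr11:96317186-96317208, plus strand: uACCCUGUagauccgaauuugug
mmu-miR-10b-5p, chr2:74726074-74726096, plus strand: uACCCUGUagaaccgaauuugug
mmu-miR-196a-5p, chr11:96265187-96265208, plus strand and chr15:102973365-102973386, plus strand: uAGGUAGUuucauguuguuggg
mmu-miR-196b-5p, chr6:52230129-52230150, minus strand: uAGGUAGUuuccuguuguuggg
mmu-miR-615-3p, chr15:103014969-103014990, plus strand: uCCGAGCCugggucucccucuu
Counted from the 5′ end, miR-10a-5p and miR-10b-5p differ by U12A, and miR-196a-5p and miR-196b-5p by A12C. All copies of these 2 families lay in type 4, in all 4 clusters.

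Outside the clusters the types were mixed, and the flanks of Hoxa and Hoxd differed from those of Hoxb and Hoxc. Over both sides together, type 4 took 41.4% of the flanks of Hoxa and 39.5% of those of Hoxd, but 9.93% at Hoxb and 1.61% at Hoxc. Part of this was the run-on of the segments over the Hox genes, which took 18.2% of the flanks at Hoxa, 2.82% at Hoxd, 5.93% at Hoxb and 1.61% at Hoxc. Separate type 4 segments took 23.3% at Hoxa, 36.7% at Hoxd, 4% at Hoxb and 0% at Hoxc. Type 3 took 30.5% at Hoxa and 34.5% at Hoxd, and 65.6% at Hoxb and 61.5% at Hoxc. The flanks rich in type 4 were poor in genes, with 4 protein-coding genes touched at Hoxa and 3 at Hoxd, and the flanks rich in type 3 held 17 at Hoxb and 23 at Hoxc. With 4 clusters this is a description only.

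Over all 8 flanks, 4 Mb in all, type 3 took 48%, type 4 23.1%, type 1 21.2%, type 5 6% and type 2 1.63%. The genome was 19% type 3, 13.6% type 4, 32.1% type 1, 24.0% type 5 and 11.2% type 2. The 2 sides of a cluster differed in no one direction over the 4 clusters. Type 4 was higher on the low-number side at Hoxa (64% against 18.8% on the paralog 13 side) and lower there at Hoxb (2% against 17.9%), Hoxc (0% against 3.23%) and Hoxd (36.0% against 43%). Type 3 was lower on the low-number side at Hoxa (14% against 47%) and higher there at the other 3 clusters. With each cluster left out in turn, the pooled type 3 share lay between 42.2% and 53.9%. The type 4 share was 17.0% without Hoxa and 30.3% without Hoxc.

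**Figure D3:**
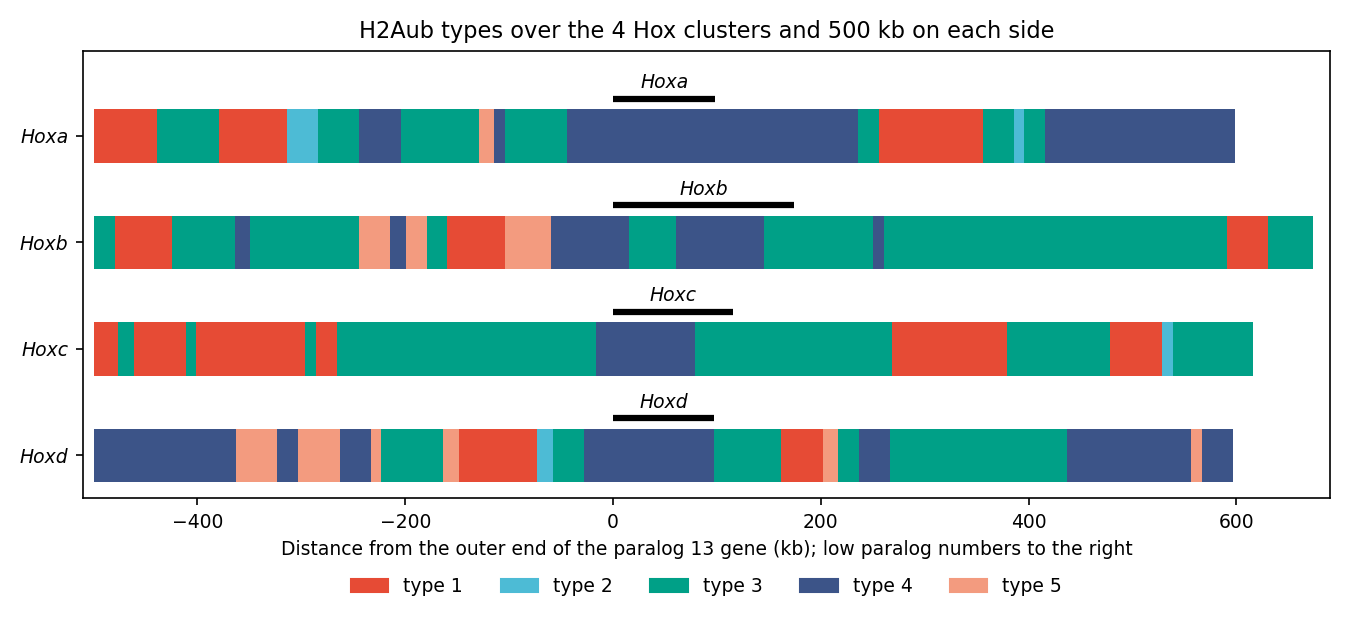
Types over each cluster (black bar) and 500 kb on each side; the x axis is the distance in kb from the outer end of the paralog 13 gene, and each coloured block is a deposited segment. Separate type 4 blocks lie in the flanks of Hoxa and Hoxd, where they take 23.3% and 36.7%, and none lies in the flanks of Hoxc.

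Beside Hoxa, type 4 returned on the low-number side 317 kb from Hoxa2, in a segment of 275 kb (51570001 to 51845000). Between that segment and the one over the cluster lay Skap2, an adaptor gene of Src kinase signalling, which was 65.2% type 1 and 28.3% type 3. On the paralog 13 side type 3 began 44.1 kb from Hoxa13 and held Evx1, an even-skipped homeobox gene, wholly. Hibadh, an enzyme of valine breakdown, was 69.1% type 1 and 30.6% type 2, and Tax1bp1 was wholly type 1.

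Beside Hoxd lie gene-poor stretches known for enhancers that drive Hoxd genes in the limbs. On the paralog 13 side Lnpk, a gene of endoplasmic reticulum shape, was 92% type 1. Beyond it came 60 kb of type 3 and short alternating segments of types 5 and 4, then a type 4 segment of 345 kb (73960001 to 74305000) from 363 kb on. This side was 43% type 4 and 21% type 5. On the low-number side Mtx2, a gene of mitochondrial import, was 78.5% type 1. Type 4 first returned there in a segment of 30 kb, 140 kb from Hoxd1 (74905001 to 74935000). After 170 kb of type 3, type 4 took 120 kb from 340 kb on (75105001 to 75225000). This side was 36.0% type 4 and 51.0% type 3.

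Beside Hoxb, the low-number side was 90% type 3 and 2% type 4. Skap1, of the same family as Skap2, and the sorting nexin gene Snx11 were wholly type 3 there. Cbx1, a gene of heterochromatin protein 1, was wholly type 1. On the paralog 13 side Ttll6, a tubulin glutamylase gene, was 74.7% type 4, in the segment that held Hoxb13, and 25.3% type 5. Calcoco2, an autophagy receptor gene, was wholly type 5.

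Beside Hoxc, type 3 ran for 250 kb before the type 4 segment (102655001 to 102905000), with Calcoco1 and Atp5g2 wholly inside. It also ran on for 153 kb beyond Hoxc4, with Smug1, a DNA repair gene, wholly inside. Cbx5 and Hnrnpa1 then followed in type 1. Type 4 took 3.23% of the paralog 13 side and none of the low-number side.

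Of 47 protein-coding genes touched by the flanks, 23 were type 1 (48.9%), 18 type 3 (38.3%), 4 type 4 (8.51%) and 2 type 5. Of these genes 40 lay beside Hoxb and Hoxc, where type 4 took little of the flanks, and 7 beside Hoxa and Hoxd. The 4 genes in type 4 were Evx2, Ttll6, Abi3 and Gngt2, and the 2 in type 5 were Calcoco2 and Igf2bp1. Abi3, Gngt2 and Igf2bp1 were named after their values were seen.

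Some genes beside 1 cluster have a relative beside another, and 8 such pairs were chosen after the segmentation had been examined. Of these, Cbx1 and Cbx5 were both wholly type 1, and Nfe2l1 (60.4% type 1) and Nfe2 (100%) both mainly so. The other 6 pairs differed. No type held more than 37.2% of all protein-coding genes, so unrelated genes would often differ too, and this count is a description only. Evx1 beside Hoxa was wholly type 3, and Evx2 beside Hoxd was wholly type 4. Calcoco2 beside Hoxb was type 5, and Calcoco1 beside Hoxc was type 3. Skap1 beside Hoxb was type 3, and Skap2 beside Hoxa was mainly type 1. Copz2 with Mir152 beside Hoxb was type 3, and Copz1 with Mir148b beside Hoxc was type 1. Mir152 lies inside the body of Copz2 and Mir148b inside that of Copz1, so these 2 pairs are not separate observations. Atp5g1 beside Hoxb was type 1, and Atp5g2 beside Hoxc was type 3.

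At their borders the Hox type 4 segments met type 3. Of the 10 sides of the 5 segments, 9 met type 3 and 1, beyond Hoxb13, met type 5. Over all 9502 sides of type 4 segments 48.4% met type 3 and 38% type 5. Type 3 stood on both sides of 4 of the 5 Hox segments, and of 33.9% of all type 4 segments. This share was 44.1% among the 1422 type 4 segments of at least 75 kb. The nearest type 1 lay between 20 and 575 kb from the Hox segments, with a median of 178 kb over the 10 sides, against 210 kb over all type 4 segments.

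Counted from the outer type 4 edges of the clusters, the first 50 kb were 75% type 3, 11.3% type 5, 10% type 1, 3.75% type 2 and 0% type 4. Outside all type 4 segments of at least 75 kb, the same distance was 45.5% type 3, 16.2% type 4, 15.1% type 5, 12.5% type 2 and 10.7% type 1. Over 500 kb the share of type 4 was 19% at the Hox clusters, against 28.0%. The 8 outer edges leave out the 2 sides that face each other inside Hoxb. Over all 10 sides of the 5 Hox segments, the first 50 kb were 78% type 3 and 2% type 4, and the 500 kb were 19.2% type 4. Between 50 and 100 kb the share of type 4 depended on these 2 sides, at 2.5% over the 8 outer sides and 22% over all 10, against 30.1% outside all such segments. On the low-number sides of Hoxb and Hoxc these distances begin inside the cluster, so that the type 3 there covers Hoxb1, Hoxb2, Hoxc4, Hoxc5 and most of Hoxc6. Counted from the outermost Hox genes instead, the first 50 kb were 52.9% type 3 and 47.1% type 4. The 8 Hox sides give few data per distance.

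**Figure D4:**
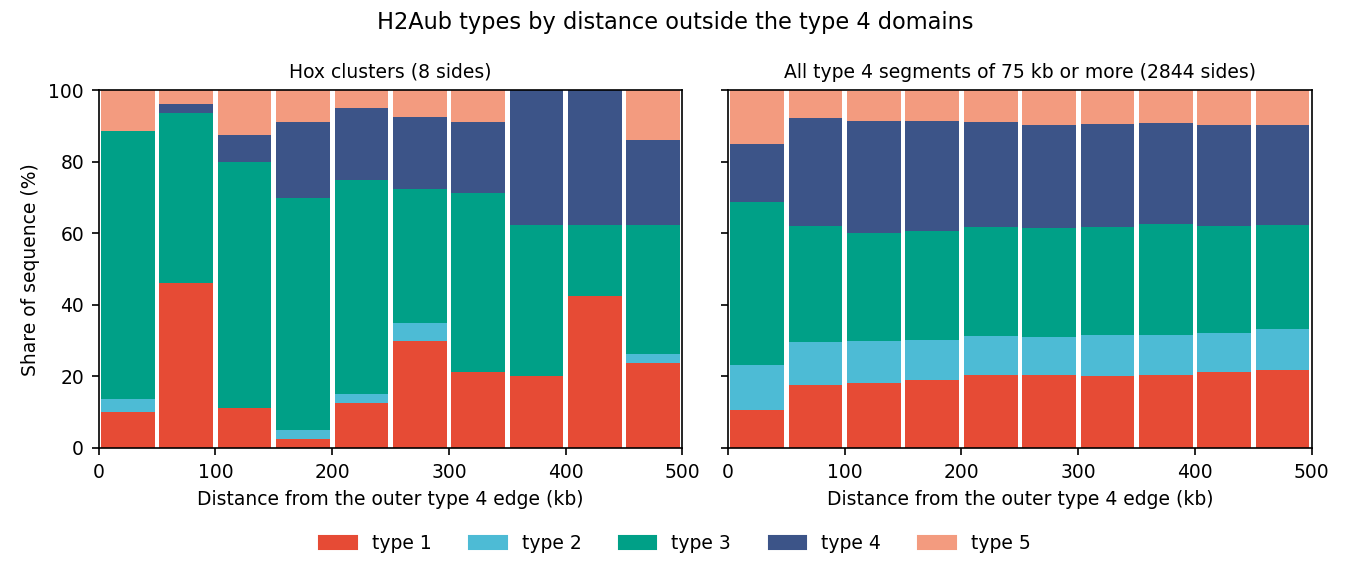
Share of sequence by type in steps of 50 kb outside the outer type 4 edge of the 4 Hox clusters (left) and of all type 4 segments of 75 kb or more (right). In the first step type 3 is at 75% at the Hox clusters, against 45.5% outside all such segments, and type 4 is at 0%, against 16.2%.

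Other homeobox genes and genes that act with Hox genes were set beside them. The 6 Irx genes, which form 2 clusters of their own, were all wholly type 4, and the 6 Dlx genes, which lie in pairs, were all wholly type 3. Of 14 Nkx genes 9 were type 4, among them Nkx2-1 of the thyroid and lung and Nkx2-5 of the heart, 4 were type 3 and 1, Nkx2-4, was type 1. The 5 ParaHox genes on the segmented chromosomes, sisters of the Hox genes, were all type 3. Pdx1 of the pancreas, Cdx2 of the gut and trophectoderm, Gsx1 and Gsx2 were wholly so, and Cdx1 over 93.1% of its body. Of the 9 homeobox genes linked to or derived with the Hox genes, 6 were type 3, 2 type 4 (En1 and Evx2) and 1 type 5 (Meox2). All of these stand against 14.0% of protein-coding genes in type 4 and 33.8% in type 3.

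Of 8 cofactor genes that bind DNA with Hox proteins, 4 were type 4, 3 type 1 and 1 type 3. Pknox2 was wholly type 4, Meis2 90.9%, Meis1 71.6% and Pbx2 53.3%. Pbx3, Pbx4 and Pknox1 were type 1, and Meis3 was wholly type 3. Of 10 genes that act on Hox transcription, 4 were type 4, 5 type 3 and 1 type 2. Kmt2a, the histone methyltransferase that keeps Hox genes active, was wholly type 4, as were the hindbrain factor gene Egr2 and the retinoic acid hydroxylase gene Cyp26b1. Its relatives Cyp26a1 and Cyp26c1 were type 3. The retinoic acid receptor genes Rara and Rarg were wholly type 3, and Rarb was 68.5% type 2 and 29.2% type 1.

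**Figure D5:**
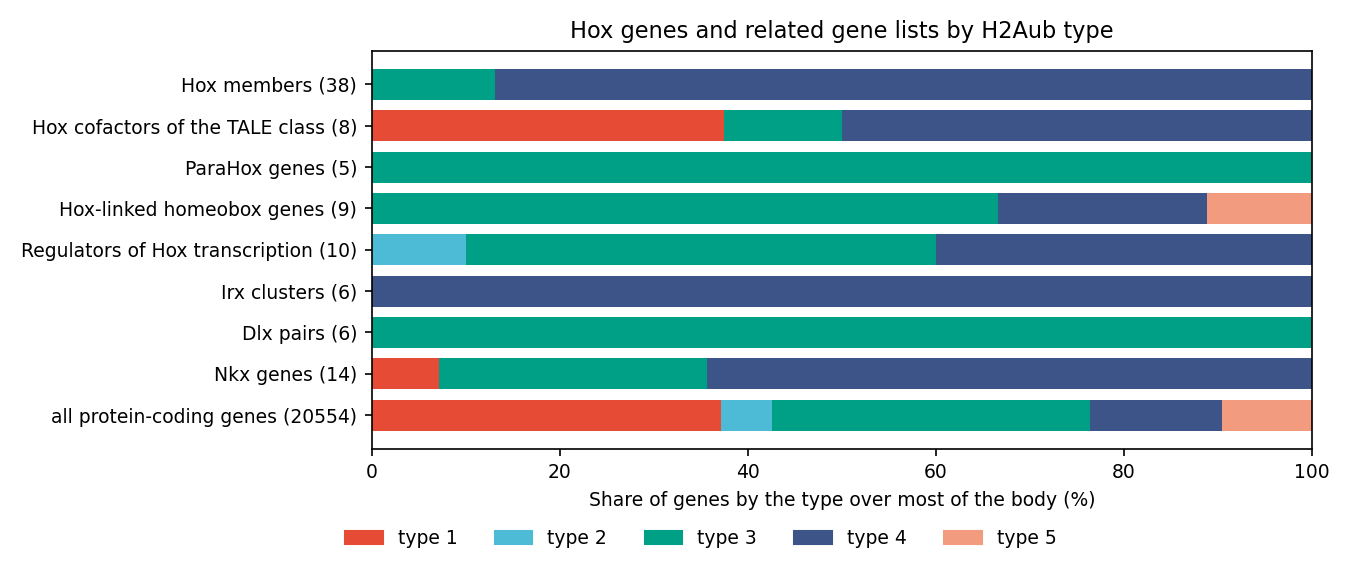
Share of genes by the type over most of the body, for the Hox genes, 7 related lists and all protein-coding genes, with the number of genes in brackets. Type 4 takes 86.8% of the Hox genes and 14.0% of all protein-coding genes, and the Dlx and ParaHox lists hold type 3 alone.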

How the data were processed

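The tools named in the submitters' processing notes are Bowtie2 2.3.4.3, deepTools 3.0.2, Picard 2.8.0 and Trim Galore 0.4.5, and the build is mm10. The authors deposited 1 segmentation, whose name gives it as ChromHMM types of H2Aub, and its value is a type label, not a quantity. Which libraries went into ChromHMM, its version and what the types mean were not given in the sources used here. Depth per sample is unknown, so no interval was computed. Types were read in 492539 bins of 5 kb. Where 2 segments overlapped (261 bins), the shorter was used.

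Positions were taken from NCBI RefSeq for GRCm38.p6, which is mm10. The table places 333 genes by scaffold, and these were left out, which left 46705 genes. Each gene took the type covering most of its body. Start sites and strand were known only for genes with a RefSeq promoter. Code (Python 3.11.15) was checked on simulated segments.

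No statistical test was made. The members and lists were chosen with earlier results of these data known. Named were all 38 members, genes inside the clusters, the 3 nearest protein-coding genes on each side and the listed genes, and, after their values were seen, 3 more flank genes and the relatives beside 2 clusters. Other genes of the region, and some genes of these families and pathways, are not reported here. Alternatives were other gene types, spans, flanks, comparison sets and each cluster left out. The length comparison with gene-holding segments, the 75 kb limit, the windows from all 10 Hox segment sides and the count without 3 long bodies were added after seeing the data.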

Additional observations from a re-analysis of the deposited data

How the results depend on the processing

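The share of Hox genes in type 4 was 86.8% by the middle bin, with 5 kb on each side and with the longer segment in overlaps, 90.9% by the start site (20 of 22 genes), 88.9% among Hox genes with 90% or more in a single type and 85.7% without the 3 long bodies. With each cluster left out in turn it lay between 82.1% and 93.1%. Over all annotated genes the comparison share was 15.9%. The type 4 share of Hoxb was 70.8% without Hoxb13 and that of Hoxd 95.2% with 5 kb on each side, and the spans' other alternatives moved it by less. In the flanks, leaving out each cluster in turn gave 17.0% to 30.3% for type 4, 42.2% to 53.9% for type 3, 16.4% to 24.5% for type 1, 0.833% to 2.17% for type 2 and 3.67% to 8% for type 5. Flanks of 250 kb gave 53.4% for type 3, 18.0% for type 1 and 0.75% for type 2, and flanks of 1000 kb gave 3% for type 2.

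Among the 1056 type 4 segments with a protein-coding gene wholly inside, 10.4% were as long as the 280 kb one at Hoxa, 39.5% as the 125 kb one at Hoxd, 50.8% as the 95 kb one at Hoxc, and 54.5% and 60.0% as the 85 and 75 kb ones at Hoxb. With segments under 25 kb left out, 3 of the 5 Hox segments, and 24.7% of all type 4 segments, had type 3 on both sides. With all segments kept, 44.1% of the type 4 segments of at least 75 kb had. No paired analysis was possible because the segmentation has no column for any library. Depth, levels and differences between stages, Eed genotypes or PR-DUB groups cannot be read from it, and borders are known to 5 kb at best.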
